A study of Homo sapiens with 6 samples.

Results

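S100 proteins and annexins were examined in HGC-27 cells, an established line of undifferentiated human gastric carcinoma, after knockdown of ACAT2, a cytosolic acetyl-CoA acetyltransferase. The genes were chosen by name, with earlier results of these data known. They were the protein-coding genes S100A followed by a number, S100B, S100G, S100P and S100Z, and those whose symbol opens with ANXA and a number. This gave 35 of the 58735 genes in the table, made up of 21 S100 genes, 13 annexin genes and ANXA2R, a reported annexin A2 receptor that is not itself an annexin. Cells carried either pSIH-H1-Puro-shACAT2, a short hairpin RNA vector against ACAT2 (shACAT2, 3 libraries), or the matching control vector pSIH-H1-Puro-shNC (shNC, 3 libraries). Both groups had 24 h of transfection and 7 days of puromycin selection and were otherwise the same line in the same medium. Which ACAT2 hairpin was used is not given in the sources used here.

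S100 proteins are small calcium sensors built from a pair of EF-hand motifs, which bind target proteins inside the cell and, when released, receptors at the cell surface. Annexins bind acidic phospholipids in a calcium-dependent way and act at membranes in trafficking, repair and the organisation of cortical actin. The families meet in shared complexes. S100A10 forms a heterotetramer with annexin A2, and S100A11 binds annexin A1.

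RNA was measured by sequencing and is given as FPKM, the fragments on a gene scaled by its length and by a factor for each library. The libraries had between 14086416 and 16067486 fragments on genes, and the factor did not follow these totals. In shACAT2-1, with 15867286 fragments, 1 fragment on 1 kb of a gene stood for 0.0659 FPKM. In shNC-3, with 16067486 fragments, it stood for 0.0580 FPKM. Scaling by library size is therefore a separate alternative below. limma, a linear model that pools the spread over genes, was applied to log2(FPKM + 1) for the 13832 genes whose shNC or shACAT2 mean reached 1 FPKM, and a gene was called at a Benjamini-Hochberg adjusted p below 0.05. ACAT2 itself fell from 12.9 ± 1.25 to 5.90 ± 0.388 FPKM (SD, n = 3 each, limma adjusted p = 0.0059, and 0.051 without shNC-3). The libraries shNC-2 and shNC-3 stood much closer together than other pairs, with a chi-square per gene of 1.73 against 12.1 to 46.0, and shACAT2-3 had 7477 genes detected in it alone, against 416 to 657 in the others. Nothing in the labels says that the libraries came from separate cultures, so the p-values measure only the spread between these libraries.

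The libraries were checked against markers of gastric epithelium and of other cells. All 10 epithelial markers lay under the filter, their summed level being 0.556 to 1.04 FPKM in shNC and 1.48 to 2.51 FPKM in shACAT2, and TFF1 and GKN1 were at 0 in every library. CDH1, the epithelial cadherin, had 12 to 21 fragments in shNC and 57 to 107 in shACAT2, and made up most of this difference at 0.161 ± 0.0540 and 0.863 ± 0.275 FPKM (SD, n = 3 each). With a filter of at least 10 fragments in every library CDH1 was called higher (log2 fold change 0.67, limma adjusted p = 0.0099), and with no filter its adjusted p was 0.167. The part of CDH1 and of this marker sum in the results that follow was not tested. Of the leukocyte markers none was called, CD14 had 0.185 to 0.416 FPKM in shNC and 0.424 to 0.768 FPKM in shACAT2, and LYZ was at 0 in all libraries but shACAT2-3. Endothelial markers summed to at most 0.561 FPKM. Fibroblast-type matrix genes were abundant in both groups, with 5 of 6 tested and sums of 304 to 338 FPKM in shNC and 442 to 535 FPKM in shACAT2. COL1A1, LUM and DCN were called higher, with log2 fold changes of 0.97, 0.64 and 0.54 (limma adjusted p = 0.014, 0.042 and 0.025). These 3 calls became 2 without shACAT2-3 and 0 without shACAT2-2 or any one of the shNC libraries. The matrix genes moved in the same direction as the S100 and annexin genes described next, and their part in those results was not tested. In bulk RNA, more cells of a type and more RNA per cell cannot be told apart.

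ANXA2, ANXA1, ANXA5, S100A10 and S100A11 were called higher in shACAT2 cells, by 1.59-fold to 2.05-fold in mean FPKM, and no member was called lower. S100A4, ANXA6 and ANXA7, each more abundant than ANXA1 in shNC cells by mean FPKM, were not called, nor were the remaining members. The 5 calls came from 14 members that passed the filter, against 3.30% of all genes tested that were called higher and 1.81% that were called lower. For the lower direction, limma gave 0 members at an unadjusted p below 0.05 as well, while limma-voom on recovered fragments gave 1 at the unadjusted and 0 at the adjusted level. In 9 of the 14, all shACAT2 values lay above all shNC values, which held for 16.2% of all genes tested, and none lay entirely below, against 14.5%. The median log2 fold change of the 14 was 0.41, beside 0.016 for all genes tested.

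The call count depended on single libraries. It was 0 without shNC-2, without shNC-3, or with these libraries averaged, with 6 members at an unadjusted limma p below 0.05 each time. It was 1, for ANXA2, without shNC-1 or shACAT2-2 and with no filter on low values, and 7 when the replicate number entered as a block.

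**Figure D1:**
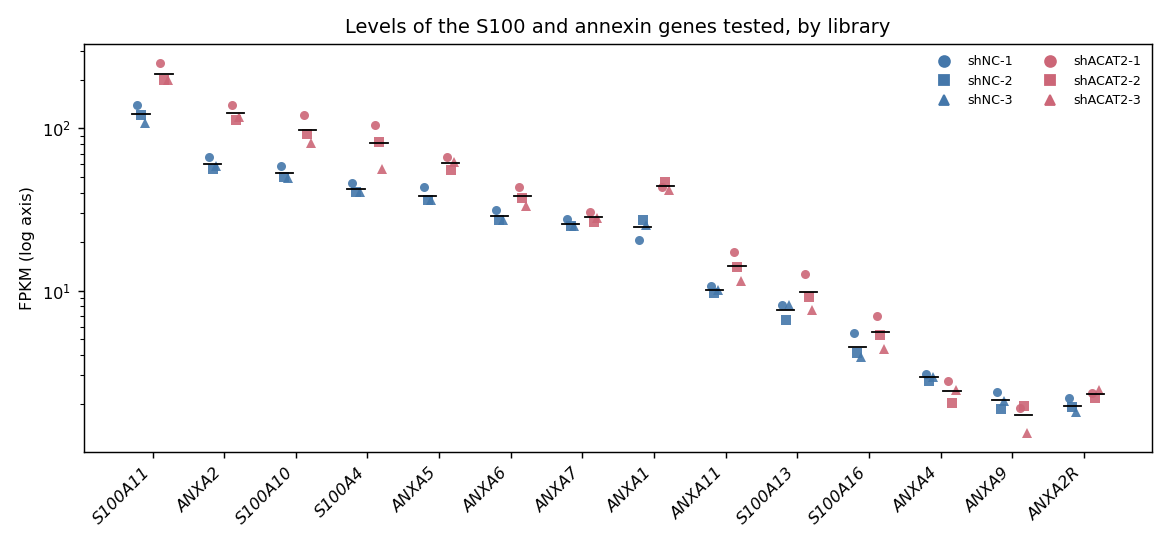
FPKM (log axis) of the 14 S100 and annexin genes tested, ordered by shNC mean, with 1 point per library (blue shNC, red shACAT2) and a black line at each group mean of 3. The 3 shACAT2 points lie above the 3 shNC points for 9 genes, among them S100A11, ANXA2, S100A10, S100A4, ANXA5 and ANXA1, while ANXA7, ANXA4 and ANXA9 overlap.

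Annexin A2 links membranes to actin and, with S100A10, binds plasminogen at the cell surface. ANXA2 (ENSG00000182718, GRCh38 chromosome 15, 60347134 to 60402883, minus strand) had 66.6, 56.3 and 58.3 FPKM in the shNC libraries, in replicate order, and 140, 113 and 118 FPKM in the shACAT2 libraries, from 8059 to 18775 fragments. Every shACAT2 value was well above the highest shNC value. Mean FPKM rose 2.05-fold, from 60.4 ± 5.45 in shNC to 124 ± 14.5 in shACAT2 (SD, n = 3 each). On the log2 scale the difference was 1.02 with a standard error of 0.13 (limma adjusted p = 0.011). Among the members it had the smallest p.

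ANXA2 shares sequence with processed pseudogenes, and how reads matching both were counted is not given in the sources used here. ANXA2P2 on chromosome 9 had 39.7, 31.2 and 30.9 FPKM in shNC and 76.6, 62.6 and 71.4 FPKM in shACAT2 libraries, and was called higher with a log2 fold change of 1.03 (limma adjusted p = 0.013). Its fragments made up 5.77% to 6.45% of the fragments on ANXA2 and ANXA2P2 together in shNC and 5.94% to 6.54% in shACAT2 libraries. The ranges of this share overlapped, while mean fragments were 1.99-fold higher on ANXA2P2 and 1.97-fold higher on ANXA2. Other pseudogenes, ANXA2P1 and ANXA2P3, had at most 2 fragments in a library, and S100A11P1 and S100A11P2 had 0.

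S100A10, also called p11, is the S100 partner of annexin A2 and differs from other S100 proteins in that it does not need calcium for target binding. S100A10 (ENSG00000197747, chromosome 1, 151982915 to 151994390, minus strand) had 59.0, 50.4 and 49.5 FPKM in the shNC libraries and 121, 91.9 and 81.6 FPKM in the shACAT2 libraries, in replicate order. The shACAT2 libraries were spread more widely than the shNC libraries, but the groups did not overlap. Mean FPKM rose 1.85-fold, from 53.0 ± 5.26 to 98.0 ± 20.2 (SD, n = 3 each), and the log2 difference was 0.86 with a standard error of 0.17 (limma adjusted p = 0.035).

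Within a library, the ratio of ANXA2 to S100A10 FPKM was 1.13, 1.12 and 1.18 in the shNC libraries against 1.16, 1.23 and 1.45 in the shACAT2 libraries. The groups overlapped, with means of 1.14 ± 0.0311 and 1.28 ± 0.149 (SD, n = 3 each). A two-sided exact permutation test gave p = 0.2, but 3 against 3 cannot go below 0.1, so it cannot pass 0.05 at any difference. The ratio was highest in shACAT2-3. Gene lengths here are all exons of a gene merged, 8824 bases for ANXA2 and 1543 bases for S100A10, so the ratio compares levels per annotated length rather than per molecule.

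S100A11, or calgizzarin, binds annexin A1 and takes part in membrane repair and growth control. S100A11 (ENSG00000163191, chromosome 1, 152032506 to 152047907, minus strand) was the most abundant member, at the 98.8th percentile of all genes tested by mean FPKM. Its values were 140, 122 and 108 FPKM in shNC and 255, 198 and 197 FPKM in shACAT2 libraries. All shACAT2 libraries lay above the shNC libraries, with shACAT2-1 the highest. Mean FPKM rose 1.76-fold, from 123 ± 15.8 to 217 ± 33.0 (SD, n = 3 each), and the log2 difference was 0.80 with a standard error of 0.15 (limma adjusted p = 0.034).

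Annexin A1, once named lipocortin, restrains inflammation through formyl peptide receptors and also acts inside the cell. ANXA1 (ENSG00000135046, chromosome 9, 73151757 to 73170393, plus strand) had 20.6, 27.4 and 25.5 FPKM in the shNC libraries against 43.8, 46.7 and 41.7 FPKM in the shACAT2 libraries, which did not overlap. Unlike for the other members tested, shNC-1 was here the lowest library of its group. Mean FPKM rose 1.80-fold, from 24.5 ± 3.47 to 44.1 ± 2.56 (SD, n = 3 each), and the log2 difference was 0.83 with a standard error of 0.13 (limma adjusted p = 0.020). The ratio of S100A11 to ANXA1 FPKM ran from 4.26 to 6.78 in shNC and from 4.23 to 5.81 in shACAT2 (two-sided exact permutation test, p = 0.8), and the ranges overlapped.

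Annexin A5 binds exposed phosphatidylserine and is widely used as a probe for dying cells. ANXA5 (ENSG00000164111, chromosome 4, 121667955 to 121697113, minus strand) had 43.6, 36.0 and 36.1 FPKM in shNC and 66.6, 55.2 and 61.9 FPKM in shACAT2 libraries. The lowest shACAT2 library thus lay above the highest shNC library. Mean FPKM rose 1.59-fold, from 38.6 ± 4.37 to 61.2 ± 5.75 (SD, n = 3 each), and the log2 difference was 0.66 with a standard error of 0.13 (limma adjusted p = 0.036). Without shACAT2-3 ANXA5 was no longer called, whereas the other 4 genes were.

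**Figure D2:**
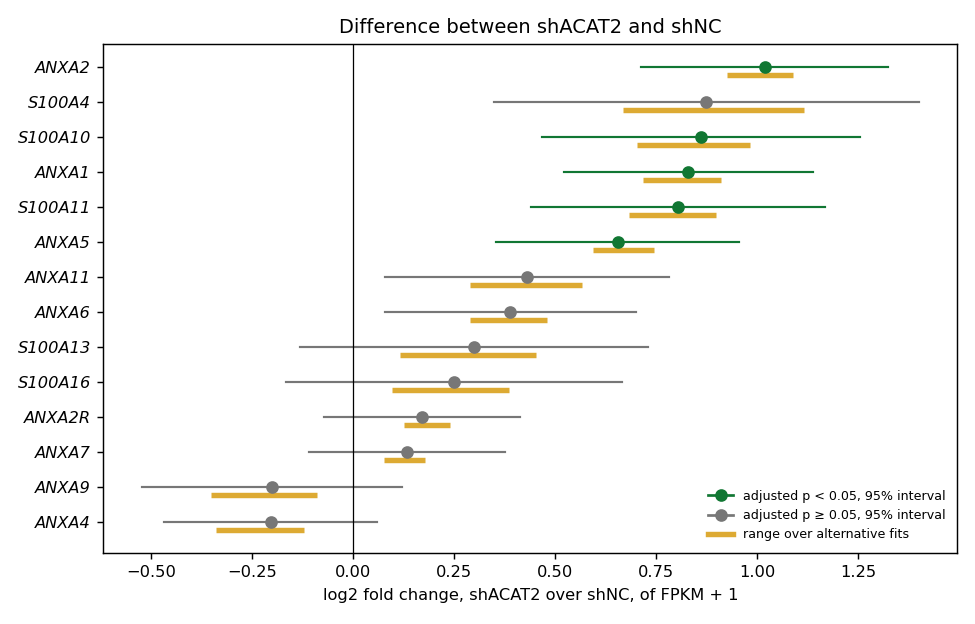
Log2 fold change of FPKM + 1, shACAT2 over shNC, for the 14 genes tested: points are limma estimates with 95% intervals (green where the adjusted p was below 0.05), and orange bars span the 14 alternative fits. ANXA2 leads at 1.02, S100A4 has the widest interval, and no gene changes its sign under the alternatives.

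The promoters of the 14 members tested were found in the RefSeq table for GRCh38.p14, as 22 windows, and the 250 bases before each start were searched on both strands. The sequences are shown for the called members because these moved together. For each, the 100 bases directly before the first exon base that GENCODE release 29 annotates in the window are given, and capitals mark motif matches. S100A10 is left out because the base 250 before its start already lies in an annotated exon.
ANXA2, chr15:60398044-60398143, minus strand: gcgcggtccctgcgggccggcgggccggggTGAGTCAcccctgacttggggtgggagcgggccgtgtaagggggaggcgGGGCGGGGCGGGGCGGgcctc
S100A11, chr1:152037036-152037135, minus strand: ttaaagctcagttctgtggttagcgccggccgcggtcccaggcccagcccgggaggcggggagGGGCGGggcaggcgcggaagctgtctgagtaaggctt
ANXA1, chr9:73151657-73151756, plus strand: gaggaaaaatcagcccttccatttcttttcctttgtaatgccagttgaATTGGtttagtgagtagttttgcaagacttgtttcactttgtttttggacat
ANXA5, chr4:121697114-121697213, minus strand: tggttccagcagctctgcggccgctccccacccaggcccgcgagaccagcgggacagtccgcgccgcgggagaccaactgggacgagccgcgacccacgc

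The ANXA2 stretch held a match to TGANTCA, the letters of the AP-1 motif, which begins 127 bases before the start, and 3 overlapping matches to GGGCGG, the GC box. S100A11 held 1 GC box and ANXA1 1 CCAAT box, written on the reverse strand. ANXA5 held no match in its stretch and 1 GC box nearer to the start, past the first annotated exon base. The S100A10 window held 1 GC box. Over the whole windows, the AP-1 letters were found in 1 of 22, the GC box in 11, TATAAA in 5, the CCAAT box in 6, the TEAD letters GGAATG in 1 and the CArG box in 1. Among all 35116 windows of the table the shares were 6.57%, 42.6%, 10.7%, 32.0%, 11.9% and 1.16% in this order. TATAAA began 31 bases before the start in ANXA2, ANXA1 and S100A4. No motif was found in the windows of all 5 called members.

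S100A4, known as metastasin, binds non-muscle myosin heavy chain and is linked with cell motility. S100A4 (ENSG00000196154, chromosome 1, 153543613 to 153550136, minus strand) had 46.3, 40.4 and 40.8 FPKM in shNC and 105, 82.7 and 55.9 FPKM in shACAT2 libraries. The groups did not overlap, but shACAT2-3 stood only a little above shNC-1, while shACAT2-1 was far above it. With a log2 fold change of 0.87 (standard error 0.22, 95% interval 0.35 to 1.40), it missed the threshold (limma adjusted p = 0.073). Under the replicate block its limma adjusted p was 0.039. Leaving out shACAT2-3 gave a log2 difference of 1.12 and an adjusted p of 0.023, and S100A4 passed the threshold in 5 of 14 alternative fits.

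ANXA6 and ANXA11 had values of the same direction that were not called. Annexin A6 is the large annexin with a duplicated core, and ANXA6 had 31.4, 27.4 and 27.3 FPKM in shNC and 43.7, 37.2 and 33.3 FPKM in shACAT2 libraries (log2 fold change 0.39, limma adjusted p = 0.137, or 0.040 with the replicate block). Annexin A11 tethers RNA granules to lysosomes, and ANXA11 had 10.6, 9.69 and 10.1 FPKM in shNC and 17.3, 13.9 and 11.4 FPKM in shACAT2 libraries (log2 fold change 0.43, limma adjusted p = 0.144). For both genes the shACAT2 values lay above the shNC values, with shACAT2-3 nearest to them.

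ANXA7, S100A13, S100A16, ANXA4 and ANXA9 had overlapping groups. Annexin A7, or synexin, is a calcium-dependent membrane fusion protein, and ANXA7 had 24.9 to 27.5 FPKM in shNC and 26.7 to 30.5 FPKM in shACAT2. Its log2 fold change of 0.13 had a 95% interval from −0.11 to 0.37, the narrowest among the 14 members. S100A13, which aids the unconventional release of FGF1, had 6.57 to 8.20 FPKM in shNC and 7.55 to 12.6 FPKM in shACAT2 (log2 fold change 0.30, 95% interval −0.13 to 0.73). S100A16 had 3.89 to 5.45 and 4.35 to 7.01 FPKM (log2 fold change 0.25, 95% interval −0.17 to 0.67). ANXA4 and ANXA9 were the members with estimates below 0, of −0.20 each, with 95% intervals from −0.47 to 0.06 and from −0.52 to 0.12. ANXA2R had 1.77 to 2.16 FPKM in shNC and 2.17 to 2.43 FPKM in shACAT2, which did not overlap but differed little (log2 fold change 0.17, limma adjusted p = 0.370). S100A13 shares 536 of its 2216 exon bases with AL162258.1 on the same strand and 235 with S100A1 on the opposite strand. How shared reads were counted, and whether strand was used, is not given in the sources used here, so its level is uncertain.

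By mean FPKM in shNC cells, the order was S100A11, ANXA2, S100A10, S100A4, ANXA5, ANXA6, ANXA7, ANXA1, ANXA11, S100A13, S100A16, ANXA4, ANXA9 and ANXA2R. The ranges over the shNC libraries overlapped between ANXA2 and S100A10, S100A4 and ANXA5, ANXA6 and ANXA7, ANXA7 and ANXA1, and ANXA9 and ANXA2R. The other neighbours in this order were separated. In shACAT2 cells ANXA1 stood above ANXA7 in every library, at 41.7 to 46.7 against 26.7 to 30.5 FPKM.

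Summed over each family, S100 FPKM was 261, 225 and 213 in shNC and 504, 390 and 352 in shACAT2 libraries, a 1.78-fold higher mean. Summed annexin FPKM was 206, 186 and 187 in shNC and 347, 296 and 299 in shACAT2 libraries, a 1.63-fold higher mean. Neither sum overlapped between the groups (two-sided exact permutation test, p = 0.1 each, the smallest p possible). S100A11, S100A10 and S100A4 supplied 93.2% to 94.2% of the S100 sum in shNC and 95.2% to 95.6% in shACAT2, so each family sum followed its few abundant genes. ANXA2, ANXA5, ANXA1, ANXA6 and ANXA7 supplied 91.8% to 92.3% of the annexin sum in shNC and 93.7% to 94.7% in shACAT2.

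**Figure D3:**
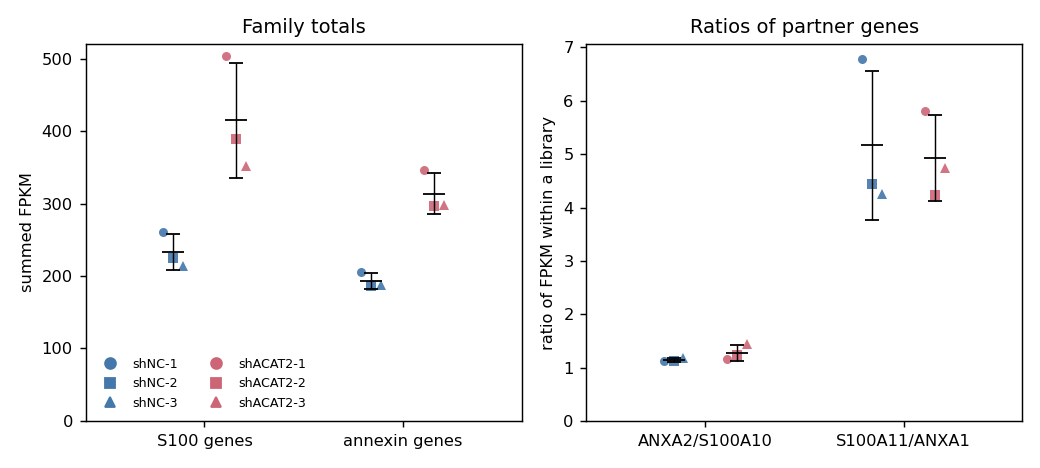
Left, summed FPKM of the 21 S100 and 13 annexin genes; right, FPKM ratios of partner genes within a library. Points are libraries, and black marks are means ± SD of 3: both sums are separated between groups, while the ratios of ANXA2 to S100A10 and of S100A11 to ANXA1 overlap.

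Most S100 genes lie in clusters on the long arm of chromosome 1, and the members there differed widely in level. Of the 17 S100 genes on this chromosome, S100A10, S100A11, S100A4, S100A13 and S100A16 passed the filter. S100A4 had 42.5 FPKM in the shNC mean. S100A5 beside it had 0.342 FPKM, and S100A3, which lies within the annotated span of S100A4, had 0.560 FPKM. S100A6, or calcyclin, the next gene beyond S100A5, had 0 to 6 fragments per library. Within 200 kb of these genes, a distance chosen after values were seen, lay 22 other protein-coding genes, of which 7 were tested. limma called 0 of the 7 and so did limma-voom, with 1 at an unadjusted limma p below 0.05, and their log2 fold changes ran from −0.08 for INTS3 to 0.36 for TDRKH. ILF2, the most abundant neighbour, had a log2 fold change of 0.24 (limma adjusted p = 0.347). The list of S100 fused-type and cornified envelope genes from the same region had 23 genes in the table, and none passed the filter, with at most 0.382 FPKM in a library.

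**Figure D4:**
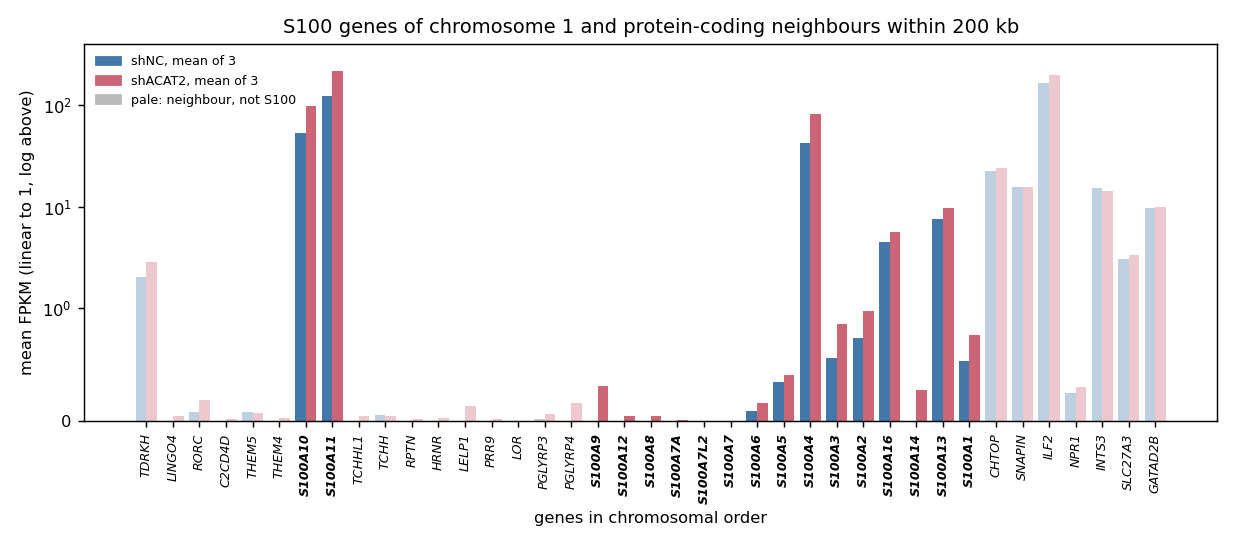
Mean FPKM (linear up to 1, logarithmic above) in shNC (blue) and shACAT2 (red) libraries for the 17 S100 genes of chromosome 1 and 22 protein-coding neighbours (pale) within 200 kb, in chromosomal order without regard to distance. S100A10 and S100A11, separated from the other S100 genes by silent genes, and S100A4, drawn between low genes by its start position, hold nearly all of the S100 signal.

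The remaining 21 members lay under the filter and were not tested. S100A1, a calcium sensor of heart and skeletal muscle, was the best covered of them, with 22, 28 and 28 fragments in shNC and 47, 32 and 29 fragments in shACAT2. On the opposite strand it shares 235 of its 3030 exon bases with S100A13 and 320 with AL162258.2. Its level is therefore uncertain too. S100A2 had 12 to 29 fragments per library, S100A3 6 to 17 and S100A5 1 to 7. S100A2 at 0.974 FPKM in the shACAT2 mean was the member closest below the filter and ANXA9 at 2.11 FPKM in the shNC mean the closest above it, and all 14 members tested had a shNC mean of at least 1 FPKM. S100A14, an S100 protein of epithelia, had 0 fragments in each shNC library and 2, 5 and 9 fragments in shACAT2-1 to shACAT2-3. These are few fragments, and the highest count fell in shACAT2-3.

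The low members were detected unevenly across libraries. In shACAT2-3, 18 of the 21 had at least 1 fragment, against 6 to 11 in each of the other libraries, and 6 had fragments in shACAT2-3 alone. These were S100A9, S100A8 and S100A12, the calgranulins of neutrophils and monocytes, with 8, 2 and 1 fragments, S100A7A and S100B with 2 each, and ANXA8L1 with 3. ANXA13, the annexin of intestinal epithelium, had 31 fragments in shACAT2-3 and at most 2 in any other library. ANXA3 had 6 fragments in shACAT2-3 and 0 to 3 in the other libraries. S100P, ANXA8, ANXA10 and S100Z had 0 to 5 fragments in any library, and S100A7, S100A7L2 and S100G had 0 in all. ANXA8 and ANXA8L1 are near-identical copies, so their fragments cannot be told apart with certainty.

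**Figure D5:**
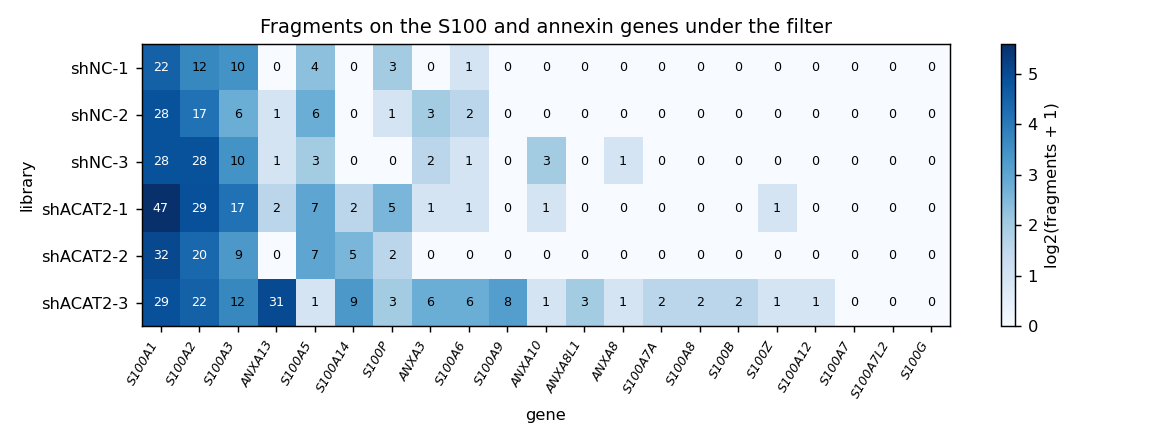
Fragments on each of the 21 S100 and annexin genes under the filter, by library, with the number printed in each cell and the shade giving log2(fragments + 1). The row of shACAT2-3 holds fragments on 18 genes, including 31 on ANXA13 and 8 on S100A9, where the other rows hold fragments on 6 to 11 genes.

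Receptors and targets of S100 proteins were taken as a list of 19 genes, of which 14 were tested and 3 were called higher, with a median log2 fold change of 0.21. For this list and those that follow, the share of all genes tested that were called higher was 3.30% and their median 0.016. EZR encodes ezrin, a linker of membrane and actin that S100P activates. It had 16.6, 12.7 and 12.9 FPKM in the shNC libraries against 49.5, 41.1 and 38.9 FPKM in the shACAT2 libraries. The groups lay far apart (log2 fold change 1.56, limma adjusted p = 0.0048), and EZR was called in all 14 alternative fits. ALCAM, an adhesion molecule, and SUGT1, a co-chaperone that binds S100A6, had log2 fold changes of 0.85 and 0.41 (limma adjusted p = 0.0468 and 0.0486) and lost their calls in 9 and 13 of 14 alternative fits. The list had 4 calls with the replicate block and 1 without any one of shNC-1, shNC-2, shNC-3, shACAT2-2 or shACAT2-3.

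Of the classical S100 receptors, AGER was tested and not called, and TLR4 lay under the filter and was not tested. AGER, the receptor for advanced glycation end products, had 3.12 ± 0.348 FPKM in shNC and 2.92 ± 1.26 FPKM in shACAT2 (SD, n = 3 each, limma adjusted p = 0.799), and TLR4 had at most 0.0251 FPKM. BSG, a receptor for S100A9, had 171 to 205 FPKM in shNC and 175 to 316 FPKM in shACAT2, which overlapped (limma adjusted p = 0.374). NPTN, also on the list, had 8.89 to 10.0 FPKM in shNC and 11.7 to 16.2 FPKM in shACAT2, which did not overlap (limma adjusted p = 0.069). MYH9, the myosin target of S100A4, and AHNAK, which S100A10 and annexin A2 bind, had log2 fold changes of 0.23 and −0.09 (limma adjusted p = 0.316 and 0.837).

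Of 16 annexin receptors and partners 8 were tested and 1, MYOF, was called higher, with a median log2 fold change of 0.14 over the 8. MYOF encodes myoferlin, a membrane-repair protein, and had 0.602, 0.888 and 0.828 FPKM in shNC and 2.02, 2.41 and 2.43 FPKM in shACAT2 libraries (log2 fold change 0.89, limma adjusted p = 0.015). It passed the filter through the shACAT2 group alone, and was not called without shACAT2-2 or without any one of the shNC libraries. Of the 6 genes that reached 1 FPKM in both groups, limma and limma-voom each called 0, with 0 at an unadjusted limma p below 0.05 and a median log2 fold change of 0.11. The formyl peptide receptors FPR1 and FPR2 had fragments in shACAT2-3 alone, with 0.180 and 0.0720 FPKM, and FPR3 had at most 0.0240 FPKM. Plasminogen was near absent, with PLG at 0 in all libraries but shACAT2-3 (0.0104 FPKM), and its activator PLAT had at most 0.131 FPKM.

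A list of 20 membrane repair genes, which also holds MYOF, had 14 tested and 1 called higher, again MYOF, with a median log2 fold change of 0.23. Of the 13 genes that reached 1 FPKM in both groups limma called 0, with 5 at an unadjusted p below 0.05 and a median of 0.18, and limma-voom called 2. Over all 14 genes tested, MYOF included, the replicate block gave 4 calls higher and 1 lower. Without shACAT2-2 or any one of the shNC libraries none of the 14 was called. CAPNS1, the calpain small subunit, had 82.8 to 99.3 FPKM in shNC and 111 to 147 FPKM in shACAT2, which did not overlap (limma adjusted p = 0.104), and CHMP2B, of the ESCRT-III complex, lay lower in every shACAT2 library, at 3.78 to 3.93 against 4.84 to 5.84 FPKM (limma adjusted p = 0.062).

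Among 42 other EF-hand calcium sensors 25 were tested and 5 were called higher, or 4 of the 23 that reached 1 FPKM in both groups, with a median log2 fold change of 0.18 either way. Among these, CALU, which encodes calumenin of the secretory pathway, CETN2, a centrin, and EFHD1, a mitochondrial calcium sensor, had log2 fold changes of 0.58, 0.83 and 0.63 (limma adjusted p = 0.026, 0.011 and 0.046). KCNIP1, a potassium channel subunit, had 0.0736 to 0.156 FPKM in shNC and 1.53 to 2.18 FPKM in shACAT2 (limma adjusted p = 0.0074), and passed the filter through the shACAT2 group alone. Its log2 fold change was 1.35 with the pseudocount of 1, 3.21 with a pseudocount of 0.1 and 3.94 by limma-voom. The 5 calls became 0 without shNC-3, 1 without shNC-1, shNC-2 or shACAT2-2, 3 without shACAT2-3 and 7 with the replicate block. For copines, calcium-dependent phospholipid binders unrelated to annexins, 3 of 9 were tested, with 0 called by limma or limma-voom, 0 at an unadjusted limma p below 0.05, and log2 fold changes of −0.14 to 0.04.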

How the data were processed

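The authors deposited 1 table of FPKM values for 58735 genes in 6 libraries of HGC-27 cells. The submitters' processing notes name hg38, HISAT2 2.0.5, featureCounts 1.5.0-p3 and DESeq2 1.20.0 without their roles. All 58735 gene lengths and coordinates equal those of GENCODE release 29. Fragments were recovered from FPKM and gene length (100% of values whole within 0.02), and served for depth, low genes and alternatives. Since FPKM is not a count, limma 3.58.1 (R 4.3.3, with a trend) was run on log2(FPKM + 1) over all genes passing the filter, which understates changes of low genes. On simulated data with 13832 genes, it recovered 95% of changes of 1.5 and 55% of changes of 0.75 on the log2 scale, and called 5 unchanged genes. The simulated libraries were independent and equally variable. They held no close pair like shNC-2 and shNC-3 and no library like shACAT2-3, so these rates need not hold for the real libraries. Same-numbered libraries deviated together from their group means (correlations 0.445, 0.126 and 0.171), each above 0.1, so the block is given beside the unblocked fit. Crossed pairs of numbers 2 and 3 had 0.198 and 0.141, so for these the correlation is not particular to the number. Every member is accounted for, and called genes of the fixed lists and partners described by role are named. The members and lists were chosen with earlier results of these data known. Protein sequences were not used here, and some genes of the lists are not reported here. Python 3.11.15, numpy 2.4.6, pandas 2.3.3, scipy 1.17.1 and matplotlib 3.10.9 served for the other steps.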

Additional observations from a re-analysis of the deposited data

How the results depend on the processing

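The 5 members called higher by limma became 1 with no filter on low values, 0 with the mean of shNC-2 and shNC-3 as 1 library, 1 at an absolute log2 fold change above 1 with unadjusted p below 0.05, and 0 to 5 with 1 library left out in turn. Upper-quartile scaling gave 6, library-size scaling 5, a pseudocount of 0.1 gave 5, at least 10 fragments in every library 6 and limma-voom 6. The replicate block gave 7, adding S100A4 and ANXA6, and changed no other member's call. No member was called lower under any of these alternatives, and none of the 14 members changed sign. The log2 fold change of ANXA2 lay between 0.93 and 1.09 and its limma adjusted p between 0.0012 and 0.083. ANXA5 ran from 0.59 to 0.74, with adjusted p from 0.014 to 0.180. Over all genes, 64.6% of limma calls were higher, against 54.4% under upper-quartile scaling, 54.9% when scaled by library size and 50.1% by limma-voom. The 456 higher and 250 lower calls became 1061 and 666 with the replicate block, 584 and 581 by limma-voom, 149 and 60 with no filter, 63 and 21 with the same libraries averaged, and from 45 and 14 to 514 and 335 with 1 library left out. Refits of the list genes, and list counts over genes reaching 1 FPKM in both groups, were added after seeing the data. Depth limits the 21 members under the filter, which had at most 47 fragments in a library.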
